A study of Gallus gallus with 16 samples.

Results

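RNA from HD11 cells treated with LPS alone was compared with RNA from untreated HD11 cells, over every transcript that reached a mean level of 10 RPM (reads scaled to a library total of 1e+06) in at least 1 of the 2 groups. By this rule 4131 of the 6492 transcripts in the deposited table were taken, of which 1195 carried a gene symbol and 2936 did not. This level was reached in both groups by 3903 of them, in the LPS group alone by 149 and in the control group (CTR) alone by 79. The rule used the level and not the difference between the groups, except that a transcript taken through 1 group alone had to differ to be taken. Just inside the limit were RSPO3 (10.07 RPM in LPS and 8.00 in CTR) and EVI2A (4.56 and 10.04), and just outside it were KTI12 (9.89 and 9.27) and EIF4EBP3 (9.48 and 8.81).

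HD11 is an established macrophage-like line of the chicken (Gallus gallus), transformed by an avian retrovirus that carries the v-myc oncogene, and all libraries come from this 1 line. LPS (lipopolysaccharide) was given at 100 ng/mL for 6 h by the deposited labels, whereas the study's methods state a longer exposure, so the time stands as the labels give it. The labels also name a compound, SeMC, at 100 μM in the medium of every sample. The study's methods name no SeMC for these cells, give PBS to the controls and state fewer replicates than the table holds, so that whether the medium held SeMC is unsure. The CTR libraries are called untreated only in the sense that they had neither LPS nor PB1. Each group has 4 libraries, and nothing in the labels says that they came from separate cultures, so that p-values measure the spread between these libraries, which may be technical. The remaining 8 libraries of the series, 4 treated with procyanidin B1 (PB1), a plant flavanol dimer, and 4 with LPS and PB1, were used only to compare the change under LPS with and without PB1.

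LPS is a lipid-anchored sugar polymer on the surface of Gram-negative bacteria, and macrophages recognise it through the receptor TLR4 and its co-receptors. Adaptor proteins pass the signal to NF-kB, AP-1 and interferon regulatory factors, which drive transcription of cytokines, chemokines and interferon-response genes. Macrophages also change iron handling, antioxidant enzymes, lipid metabolism and complement production when they meet bacterial products.

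Between 4185555 and 4329089 reads per library were read back from the steps of the deposited values in the 8 libraries. The study states a lower average number of reads per sample, and the source of this gap was not tested. All read counts given here rest on the reads read back. Values are given as normalized signal, scaled to 1e+06 per library. The replicates of each group fell into 2 pairs. Reads of replicates 1 and 2 differed from each other with a chi-square per degree of freedom of 2.87 in LPS and 1.18 in CTR, and those of replicates 3 and 4 with 2.92 and 4.91, all above sampling noise, whereas between the pairs it was 37.1 to 39.8 in LPS and 20.7 to 23.7 in CTR. The labels give no source for the pairs. The main test treated the 4 libraries of a group as independent, so that its p-values may be too small where the libraries of a pair are not. Values of replicates 1 and 2 and of replicates 3 and 4 are given for some genes, and they set LPS against CTR by replicate number alone, although nothing shows that equal numbers belong together. Of 8 macrophage markers with a symbol in the table, 3 reached the level, RAC2 and CLEC3B among them, and together these 8 summed to 295 to 713 in the LPS libraries and 169 to 249 in CTR. The largest part of the sum in every library was CLEC3B (150 to 608 in LPS and 111 to 171 in CTR), which encodes a secreted lectin and does not define macrophages. CYBB, the catalytic subunit of the phagocyte oxidase, had 0 reads in all 8 libraries, and MRC1, the mannose receptor, and MMP9, a macrophage protease, had at most 1 read. All 9 fibroblast and mesenchyme markers were present and summed to 77096 to 111206 in LPS and 93554 to 110849 in CTR. The named markers thus went against a macrophage label, although most macrophage genes could not be looked up because predicted transcripts carried no name. Markers of endothelium, epithelium, muscle, nerve and lymphocytes did not reach the level. Of 5 cartilage and bone markers SOX9 alone reached it. Of 5 erythroid and thrombocyte markers 3 did, namely ITGB3, HBEGF, which entered by its name, and HBA1, through 1 library alone. In bulk RNA a loss of cells of 1 type and a loss of RNA per cell cannot be told apart.

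Of the 4131 transcripts, 4128 passed the filter on low values and were tested. A transcript was called where its change reached 1.5-fold with an adjusted p no higher than 0.05, and 632 were called. These were 366 higher and 266 lower in LPS, or 15.3% of those tested, beside 16.7% called over all 4518 tested transcripts of the table (9.87% higher and 6.86% lower). Among the 1193 tested with a symbol, 88 were higher and 79 lower, which is 14.0%. Restricting the set to transcripts at the level in both groups left 461 calls, 265 higher and 196 lower, among 3903 tested. That is 11.8%, whereas 69.2% were called of those at the level in LPS alone and 88.6% of those in CTR alone. The LPS and CTR libraries did not overlap in 608 of the 632 called, beside 34% of all tested transcripts that did not overlap. Among the called transcripts 318 changed at least 2-fold and 61 at least 8-fold, but among those at the level in both groups only 183 and 10 did, since a transcript taken through 1 group alone had to differ. The median log2 fold change was -0.0035 over the tested members and 0.0031 over all tested transcripts. Set against each other by number, all 632 kept their direction in both pairs of replicates and 419 passed the same limits in each pair alone. The pairs are parts of the same libraries that gave the calls, so nothing is read from the shared direction. When each pair was averaged to 1 value, 349 members were called, and of the 66 called genes and transcripts described by name below, 22 were no longer called, with adjusted p from 0.052 for PTGDS to 0.29 for COL3A1. The others were ADH1C, TGFBI, C12orf75, CYR61, CCN2, WISP1, HOXA11, FZD5, FZD2, EPHB2, MT3, HMOX1, FTH1, EPAS1, ENO1, PLK1, CDC20, RPS2, RAC2 and ACTN1. In replicates 1 and 2 alone 13 of the 66 were not called, namely TRIM25, WISP1, HOXA11, FZD2, MT3, ENO1, PLK1, CDC20, RPS2, EIF6, RAC2, ACTN1 and LMNB2, and in replicates 3 and 4 alone 4 were not, namely CYR61, CSTB, COL3A1 and HMOX1.

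The largest rises among well-expressed named genes were those of APOD, C3, DEPTOR, SLC40A1, HOXC10, SFRP1, ADH1C and ID4. APOD, DEPTOR, SLC40A1 and HOXC10 reached the level in LPS alone, so that a rise was in part fixed by how they were taken. C3, the central component of the complement cascade (chromosome 30, 138499 to 165753 in GRCg7b), was at 515, 579, 1192 and 1183 in LPS replicates 1 to 4 and at 22.0, 20.2, 22.2 and 20.4 in CTR replicates 1 to 4. Every LPS library was thus far above every CTR library, with replicates 3 and 4 of LPS above replicates 1 and 2. The mean was 867 ± 371 in LPS and 21.2 ± 1.07 in CTR (SD, n = 4), a 40.9-fold difference (log2 fold change 5.25 ± 0.26 SE, adjusted p = 3.8e-07). APOD, which encodes a lipid-binding lipocalin, was at 108, 119, 133 and 126 in LPS and at 1.79, 2.57, 3.13 and 6.76 in CTR (log2 fold change 5.27 ± 0.33, adjusted p = 1.8e-06). DEPTOR, an inhibitor of the mTOR kinase complexes, was at 175 to 215 in LPS and 5.60 to 8.91 in CTR, a 26.6-fold rise. SLC40A1, ferroportin, the exporter of iron from cells, was at 67.9, 62.0, 134 and 143 in LPS against 2.28, 2.77, 6.83 and 3.98 in CTR. Both groups were higher in replicates 3 and 4 than in replicates 1 and 2, and the groups did not overlap (25.7-fold, adjusted p = 1.0e-05).

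SFRP1, a secreted protein that binds Wnt ligands, was at 2467, 2397, 3747 and 3781 in LPS and at 174, 168, 273 and 294 in CTR. It rose 13.6-fold by the group means, and both groups were higher in replicates 3 and 4. HOXC10, a homeobox transcription factor, was at 94.5 to 122.8 in LPS and 4.21 to 5.25 in CTR (log2 fold change 4.51 ± 0.12, adjusted p = 1.1e-08). ID4, which blocks basic helix-loop-helix transcription factors, was at 163 to 236 in LPS and 20.4 to 23.9 in CTR (8.79-fold). ADH1C, an alcohol and retinol dehydrogenase, was the least even of the group, at 335, 331, 140 and 127 in LPS and at 6.63, 6.77, 44.0 and 37.5 in CTR. Its log2 fold change was 5.63 in replicates 1 and 2 and 1.70 in replicates 3 and 4, and the adjusted p of 0.0021 became 0.054 on the means of the pairs.

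**Figure D1:**
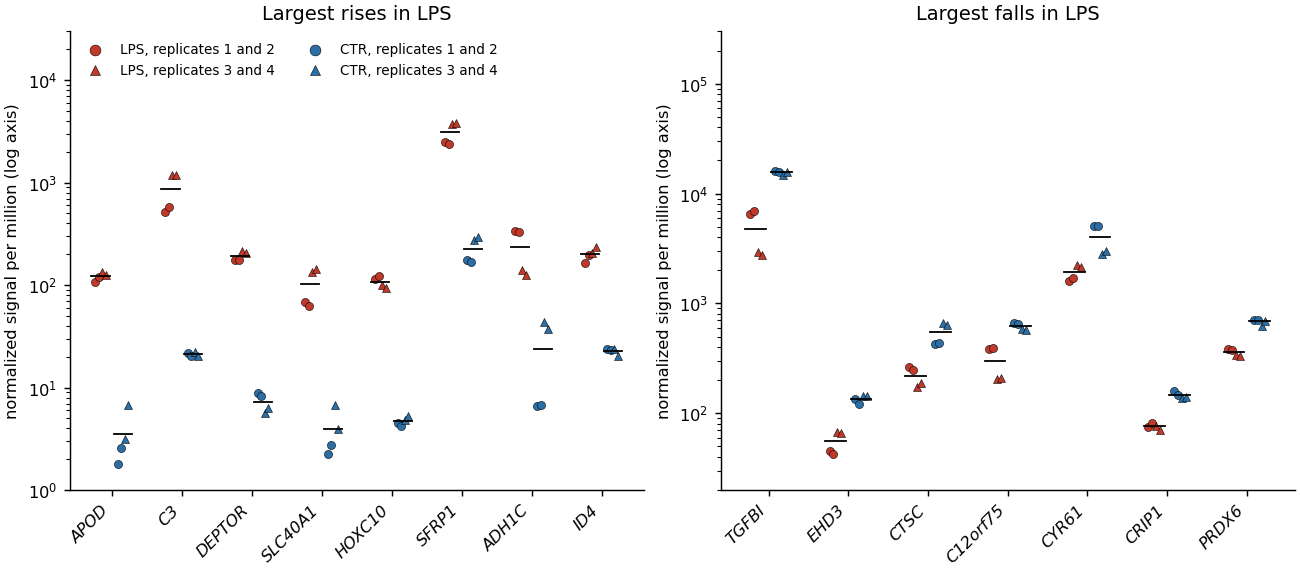
Normalized signal scaled to 1e+06 per library (log axis) of the 8 named genes with the largest rise (left) and 7 of the 8 with the largest fall (right) in LPS, among called genes with separate groups and a mean of 100 or more on the higher side. Each point is 1 library (red LPS, blue CTR; circles replicates 1 and 2, triangles replicates 3 and 4), and bars are means of 4 libraries. The rises reach 40.9-fold for C3, and the falls are smaller, with 3.25-fold for TGFBI.

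The falls among well-expressed named genes were smaller than the rises, from 3.25-fold to under 2-fold. TGFBI, an extracellular matrix protein induced by TGF-beta, was at 6528, 6990, 2922 and 2772 in LPS and at 16085, 15742, 14824 and 15797 in CTR. All LPS libraries were below all CTR libraries, by a log2 fold change of -1.24 in replicates 1 and 2 and -2.44 in replicates 3 and 4 (pooled -1.83 ± 0.30, adjusted p = 0.0012; 0.060 on the means of the pairs). EHD3, which acts in endosome recycling, was at 42.6 to 67.7 in LPS and 122 to 145 in CTR, 2.45-fold lower. CTSC, the lysosomal protease that activates granule serine proteases, was at 263, 248, 173 and 187 in LPS against 431, 437, 669 and 639 in CTR, 2.50-fold lower (adjusted p = 4.4e-04). CRIP1, a small zinc-binding LIM protein, was at 71.2 to 82.1 in LPS and 139 to 159 in CTR, and PRDX6, a peroxidase that reduces phospholipid hydroperoxides, was at 334 to 386 in LPS and 621 to 713 in CTR. These 2 had the most even falls, with log2 fold changes of -0.94 ± 0.08 for CRIP1 (adjusted p = 1.0e-05) and -0.93 ± 0.08 for PRDX6 (adjusted p = 1.1e-05). C12orf75 was at 204 to 397 in LPS and 576 to 662 in CTR.

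Among the pattern receptors and their adaptors, 4 members had a symbol, and 2 rose. For this and every list below, the share called over all tested transcripts was 16.7% (9.87% higher and 6.86% lower). No list was tested as a set. TLR3, the endosomal receptor for double-stranded RNA, was at 18.6, 13.6, 18.7 and 19.99 in LPS and at 5.71, 6.06, 8.81 and 6.76 in CTR. The libraries did not overlap and the rise was 2.59-fold (log2 fold change 1.38 ± 0.18, adjusted p = 3.2e-04). TLR3 reached the level in LPS alone, so that a rise was in part fixed by how it was taken. IFIH1 (MDA5), a cytosolic sensor of double-stranded RNA, was at 19.0, 21.1, 24.2 and 26.7 in LPS and at 10.7, 10.3, 10.7 and 10.8 in CTR, a 2.14-fold rise (adjusted p = 1.6e-04). TMEM173 (STING), the adaptor of cytosolic DNA sensing, was at 176 to 200 in LPS and 163 to 180 in CTR and was not called. CLEC3B, a secreted plasminogen-binding lectin that entered the list by its name, was at 520, 608, 164 and 150 in LPS and at 170, 171, 111 and 126 in CTR, and its groups overlapped (log2 fold change 1.07 ± 0.43, adjusted p = 0.088). CLEC3B was called without LPS replicate 3 (adjusted p = 0.041) or LPS replicate 4 (0.030). IRAK2, PGLYRP2, MRC1 and CLEC3A were below the level. TLR4 was not among the named genes of this list and could not be looked up. The study names TLR4 among the transcripts that differed between LPS and control in its own test, and its text gives no direction. The median log2 fold change of the 4 tested was 1.07, beside 0.00 over all tested transcripts.

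No cytokine, chemokine or receptor of theirs was called among the 6 members with a symbol. IL1B was not among the 17 named genes of this list. Nor was TNFSF10, a cytokine that the study names among the transcripts that differed between LPS and control. Cytokine genes whose transcripts carried no symbol could not be looked up, so the cytokine response as a whole was not measured. IL6, the acute-phase cytokine, was at 291, 272, 239 and 264 in LPS and at 285, 307, 236 and 238 in CTR. The groups overlapped throughout and the log2 fold change was 0.01 ± 0.10 (adjusted p = 0.97). TNFRSF11B (osteoprotegerin), the decoy receptor for RANKL, was at 522 to 580 in LPS and 618 to 716 in CTR, and its log2 difference of -0.27 (adjusted p = 0.020) was under the limit of 1.5-fold. The remaining 4 members were MIF, IL13RA2, CRLF3 and TGFB3. A further 11 genes of the list, which included IL10, CCL4, CCL5, IL12B, IFNG and IL17A, did not reach the level in either group. Of these, IFNG, IL17A, IL22 and CCL4 had 0 reads in all 8 libraries, and the highest count was 22 reads, for CXCL14 in 1 LPS library. At this depth 0 reads allow up to 3 reads in a library, for counting error only.

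The interferon-response list had 6 members with a symbol, of which IFIH1 and TRIM25 rose. TRIM25, the ubiquitin ligase that acts with the sensor RIG-I in mammals, was at 262, 280, 342 and 354 in LPS and at 183, 188, 195 and 190 in CTR (1.64-fold, adjusted p = 4.9e-04). IFIT5, an interferon-induced RNA-binding protein, was at 44.0, 39.9, 52.3 and 49.9 in LPS and at 55.4, 53.9, 53.1 and 53.0 in CTR, a log2 difference of -0.22 that was not called. Also not called were TRIM39.2, TRIM8 and TRIM28, which entered the list by the family name TRIM. The median log2 fold change of the list, with these genes included, was 0.04.

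In the list of NF-kB, AP-1 and MAPK signalling, 1 of 19 members rose, 2 fell and 16 were not called, with a median log2 fold change of -0.16. JUN, a subunit of AP-1, was at 316, 363, 383 and 351 in LPS and at 533, 526, 550 and 588 in CTR. Every LPS library was below every CTR library, with log2 fold changes of -0.65 and -0.64 in the 2 pairs (pooled -0.64 ± 0.08, adjusted p = 1.5e-04). DUSP4, a phosphatase that switches off MAP kinases, was at 19.0 to 31.0 in LPS and 46.3 to 70.2 in CTR, 2.29-fold lower. ZFP36L2, which promotes the decay of AU-rich mRNAs, was at 469 to 631 in LPS and 258 to 316 in CTR, 1.97-fold higher. FOS, the partner of JUN in AP-1, was at 12.4, 9.89, 94.3 and 86.1 in LPS and at 22.4, 22.7, 4.86 and 5.75 in CTR. It was lower in LPS in replicates 1 and 2 (log2 fold change -1.03) and higher in replicates 3 and 4 (4.08), and was not called over all libraries (adjusted p = 0.19). This direction rests on the replicate numbers, since LPS replicates 1 and 2 lay above CTR replicates 3 and 4, and LPS replicates 3 and 4 above CTR replicates 1 and 2. EGR1, an immediate-early transcription factor chosen here after its values were seen, was at 108, 120, 628 and 588 in LPS and at 1189, 1143, 69.7 and 86.5 in CTR. By replicate number EGR1 was also lower in LPS in replicates 1 and 2 and higher in replicates 3 and 4. Unlike in FOS, LPS replicates 3 and 4 of EGR1 lay below CTR replicates 1 and 2.

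**Figure D2:**
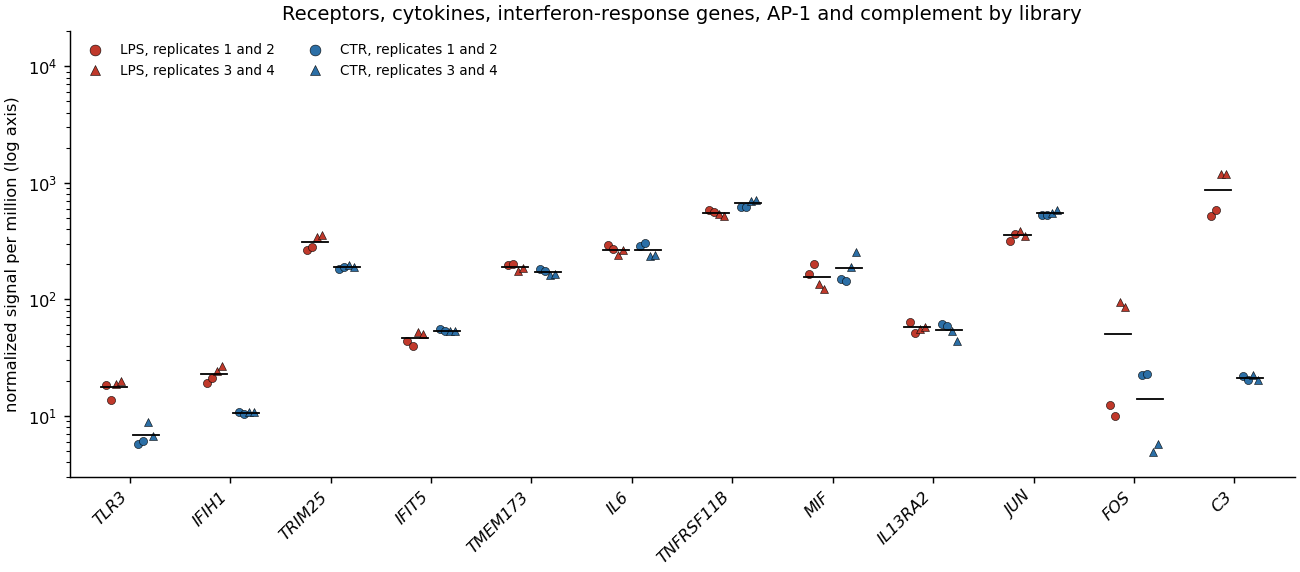
Normalized signal scaled to 1e+06 per library (log axis) by library for genes of pathogen sensing, cytokines, the interferon response and AP-1, with C3 for scale. Red is LPS and blue CTR, circles are replicates 1 and 2 and triangles replicates 3 and 4, and bars are means of 4 libraries. TLR3, IFIH1, TRIM25 and C3 lie higher and JUN lower in LPS, IL6 overlaps, and FOS differs more between the pairs of replicates within a group than its groups do.

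All 4 of the 7 matricellular proteins that were called fell, and the median log2 fold change of the list was -0.61. These proteins are secreted into the matrix and signal to cells rather than holding it together. CYR61 (CCN1) was at 1584, 1705, 2235 and 2165 in LPS and at 5114, 5095, 2844 and 2970 in CTR. CCN2 (connective tissue growth factor) was at 2328, 2662, 2008 and 2046 in LPS and at 4509, 4657, 3209 and 3168 in CTR. Neither gene overlapped between the groups, and the falls were 2.08-fold for CYR61 (adjusted p = 0.0058) and 1.72-fold for CCN2 (adjusted p = 0.0046). In both, replicates 1 and 2 of CTR were the highest libraries. With each pair averaged, none of the 4 was called, at adjusted p of 0.060 for TGFBI, 0.12 for CYR61, 0.13 for CCN2 and 0.24 for WISP1. CYR61 was also under 1.5-fold in replicates 3 and 4 alone (log2 fold change -0.41). WISP1 (CCN4) was at 142, 155, 94.5 and 103 in LPS and at 148, 151, 248 and 211 in CTR, and its groups overlapped. Its call (adjusted p = 0.043) was lost without any one of replicates 3 and 4 of either group (adjusted p = 0.105 to 0.112) and with all 16 libraries in 1 fit (0.13). The members not called were SPARC, FSTL1 and CCN3.

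Of 7 structural matrix genes only COL3A1, a fibrillar collagen, was called. It was at 14631, 14581, 9066 and 8855 in LPS and at 5705, 5585, 8456 and 8139 in CTR. By replicate number the log2 fold change was 1.37 in replicates 1 and 2 and 0.10 in replicates 3 and 4, and the call (adjusted p = 0.030) was lost without LPS replicate 1 (0.072), LPS replicate 2 (0.065), CTR replicate 1 (0.087) or CTR replicate 2 (0.088). Among 10 matrix enzymes and their inhibitors, 2 rose and 1 fell. TIMP3, an inhibitor of metalloproteinases that stays bound to the matrix, was at 3165, 3295, 3360 and 3330 in LPS and at 1503, 1490, 1287 and 1261 in CTR. It was among the most even rises, 2.37-fold with an adjusted p of 3.8e-06. In the same chromosomal region as COL3A1, SLC40A1, COL3A1 and CALCRL, which follow each other among named tested genes on chromosome 7 (441431 to 1237865 in GRCg7b), were all higher in LPS, although CALCRL did not reach the level. This was the only run of 3 or more neighbours called in 1 direction. Transcripts without a symbol between them were skipped, and how many such runs arise by chance was not tested.

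The HOX genes and other developmental transcription factors changed in both directions. HOXC10, HOXB8, HOXA11, ZIC1, SOX11 and SOX6 reached the level in 1 group alone, so that a difference was in part fixed by how they were taken. Of 6 HOX members 3 rose and 2 fell. HOXB8 was at 25.7, 23.1, 16.9 and 20.2 in LPS and at 2.71, 2.10, 2.14 and 2.72 in CTR, an 8.87-fold rise beside that of HOXC10. HOXA11 was at 5.44 to 9.41 in LPS and 10.8 to 16.8 in CTR, 1.90-fold lower. Of 21 other developmental factors 4 rose and 5 fell, with a median log2 fold change of 0.11. ZIC1, a zinc-finger factor of neural and muscle development, was at 0.689, 1.72, 0.435 and 0.615 in LPS and at 39.2, 37.3, 39.8 and 47.8 in CTR. It was close to absent from all LPS libraries, with at most 6 reads (47.4-fold lower by the means, adjusted p = 1.9e-06). SOX11 was at 0.689 to 2.61 in LPS and 15.05 to 20.4 in CTR, and SOX6 was at 0.435 to 1.28 and 10.5 to 14.8. SOX4, of the same family as SOX11, went the other way, at 103, 96.7, 129 and 140 in LPS and at 24.5, 26.7, 38.1 and 44.8 in CTR (3.49-fold higher). ID2, an inhibitor of the same class as ID4, was at 442 to 584 in LPS and 230 to 305 in CTR, 1.95-fold higher.

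Among 14 genes of the BMP, TGF-beta, Wnt, Hedgehog and Notch pathways 5 rose and 2 fell, with a median log2 fold change of 0.36. SFRP1 led the rises. Wnt receptors moved in both directions. FZD5 was at 23.6, 24.0, 52.3 and 47.8 in LPS and at 17.4, 13.8, 15.4 and 18.6 in CTR (2.27-fold higher), and FZD2 was at 63.3 to 97.2 in LPS and 113 to 140 in CTR (1.60-fold lower). Among 13 growth factors and receptor tyrosine kinases 4 rose and 3 fell. KITLG (stem cell factor), the ligand of the receptor KIT, was at 319 to 407 in LPS and 171 to 207 in CTR, 1.91-fold higher. EPHB2, an ephrin receptor, was at 37.6, 39.2, 71.6 and 80.5 in LPS and at 17.6, 14.3, 25.4 and 28.1 in CTR. IGF1R, the receptor of insulin-like growth factor, was at 207, 232, 214 and 213 in LPS and at 348, 360, 421 and 388 in CTR, and fell with little spread within LPS (1.75-fold lower, adjusted p = 3.4e-05). BDNF, a neurotrophin, was at 24.5 to 31.6 in LPS and 50.1 to 61.0 in CTR, 1.89-fold lower.

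Of 19 antioxidant enzymes and genes of the NRF2 pathway 4 rose and 1, PRDX6, fell. SELENOP1, which encodes the secreted selenium carrier selenoprotein P, was at 84.5, 70.2, 89.0 and 87.1 in LPS and at 13.02, 12.9, 16.1 and 12.6 in CTR. The libraries of the 2 groups were far apart and the rise was 6.06-fold (log2 fold change 2.60 ± 0.12, adjusted p = 2.8e-07). MT3, a metallothionein that binds zinc and copper, was at 202, 233.8, 632 and 554 in LPS and at 148, 141, 130 and 168 in CTR. Its call (adjusted p = 0.015) was lost with all 16 libraries in 1 fit (0.065), when each pair was averaged (0.14) and, through a change under 1.5-fold, in replicates 1 and 2 alone. HMOX1, heme oxygenase, which breaks heme down to biliverdin and iron, was at 329, 348, 416 and 376 in LPS and at 131, 122.9, 275 and 310 in CTR. The lowest LPS library of HMOX1 was only slightly above the highest CTR library, and its call (adjusted p = 0.030) was lost without any one of LPS replicates 3 and 4 and CTR replicates 1 and 2 (adjusted p = 0.068 to 0.084). NFE2L2, which encodes NRF2 itself, was at 315 to 347 in LPS and 325 to 377 in CTR, a log2 difference of -0.08 (adjusted p = 0.43). The median log2 fold change of the list was 0.12.

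Both genes called in the heme and iron list rose, out of 4 tested. Besides SLC40A1 this was FTH1, the heavy chain of the iron store ferritin, at 4840, 5338, 9391 and 8993 in LPS and at 2810, 2825, 4078 and 4960 in CTR. Highest CTR and lowest LPS libraries of FTH1 overlapped, and its call (adjusted p = 0.021) was lost without any one of LPS replicates 3 and 4 and CTR replicates 1 and 2 (adjusted p = 0.059 to 0.064). In the hypoxia and glycolysis list 1 of 10 rose and 2 fell. BHLHE40, a transcriptional repressor of the circadian and hypoxia systems, was at 146, 166, 138 and 144 in LPS and at 55.4, 43.4, 37.2 and 44.5 in CTR, a 3.29-fold rise (adjusted p = 3.5e-06). EPAS1 (HIF-2 alpha) was at 600, 647, 912 and 903 in LPS and at 1123, 1150, 1409 and 1483 in CTR, 1.69-fold lower. HIF1A was at 2876, 3302, 1650 and 1787 in LPS and at 2083, 2087, 1921 and 1925 in CTR, and the pairs lay on opposite sides of CTR (log2 fold change 0.56 and -0.17, pooled adjusted p = 0.49). ENO1, a glycolytic enolase, was at 1253 to 1894 in LPS and 2335 to 2517 in CTR, and its log2 fold change of -0.65 fell short of 1.5-fold without LPS replicate 4 (-0.56).

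In lipid, sterol and retinoid metabolism 5 of 18 rose and 2 fell, with a median log2 fold change of 0.19. APOD and ADH1C were the largest rises. PTGDS, which makes prostaglandin D2 and carries lipophilic molecules, was at 9.28, 8.17, 29.9 and 23.4 in LPS and at 2.71, 3.28, 3.87 and 2.72 in CTR (5.62-fold higher). Like APOD, PTGDS reached the level in LPS alone, so that a rise was in part fixed by how it was taken. Of 12 lysosomal genes 2 rose and CTSC fell. CSTB, an inhibitor of cysteine cathepsins, was at 255 to 284 in LPS and 167 to 194 in CTR (1.55-fold), and ATP6V0C, a membrane subunit of the proton pump that acidifies lysosomes, was at 410 to 556 in LPS and 275 to 352 in CTR (1.62-fold).

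Of 36 cell cycle and DNA replication genes 6 fell and 1 rose, and 29 were not called, with a median log2 fold change of -0.04. This share of calls was near the 16.7% of all tested transcripts, so nothing is read from the count. The falls included kinases and checkpoint genes of mitosis. PLK1, the polo-like kinase of mitotic entry, was at 37.8, 46.4, 14.5 and 16.1 in LPS and at 55.4, 56.04, 74.4 and 74.5 in CTR. CDC20, an activator of the anaphase-promoting complex, was at 32.4, 34.7, 18.2 and 19.1 in LPS and at 40.8, 46.7, 54.8 and 64.4 in CTR. In both genes the fall was steeper in replicates 3 and 4, -2.30 (log2) against -0.42 for PLK1 and -1.68 against -0.38 for CDC20. CDK6, a kinase of the G1 phase, was at 102 to 121 in LPS and 187 to 221 in CTR and fell alike in both pairs (1.84-fold lower, adjusted p = 2.4e-05). The members not called included MCM2, MCM6, PCNA and TOP2A.

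Genes of general cell function rarely passed the limits. Of 30 ribosomal proteins RPS2 alone was called, at 995 to 1137 in LPS and 1477 to 1921 in CTR, and its log2 fold change of -0.64 was -0.57, under 1.5-fold, without CTR replicate 4. Of 32 translation factors and tRNA synthetases 2 fell. EIF1AX, which positions the ribosome at start codons, had 1 read in all LPS libraries together and 342 in CTR, a ratio of 345 with a 95% exact interval from 61.5 to 13666.5 for counting error only. These reads are of a named transcript, and other transcripts of the gene may be among those without a symbol. EIF1AX also reached the level in CTR alone, so that a fall was in part fixed by how it was taken. EIF6, which keeps ribosomal subunits apart, was at 116 to 161 in LPS and 215 to 250 in CTR. No member was called among 35 proteasome and ubiquitin genes or 6 apoptosis genes, 1 of 25 chaperones (HSPA4L, at 31.6 to 55.1 in LPS and 14.4 to 16.2 in CTR) and 3 of 52 mitochondrial genes. Every one of these lists had a smaller share of calls than the 16.7% of all tested transcripts.

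Cytoskeletal and membrane genes changed one by one. NES (nestin), an intermediate filament protein of immature cells, was at 24.8, 28.5, 31.4 and 29.3 in LPS and at 95.8, 95.3, 72.2 and 86.8 in CTR, 3.07-fold lower. LMNB2, a lamin of the nuclear envelope, was at 189 to 214 in LPS and 303 to 337 in CTR, and VIM and the tubulins of the list were not called. RAC2, the only macrophage marker called, was at 78.8, 83.1, 112 and 116 in LPS and at 64.6, 57.7, 39.3 and 45.3 in CTR (1.89-fold higher). The call of RAC2 was lost in replicates 1 and 2 alone (log2 fold change 0.40) and when each pair was averaged (adjusted p = 0.079). ACTN1, an actin crosslinker, was at 1616, 1677, 952 and 887 in LPS and at 2140, 2092, 2141 and 2408 in CTR. Of 12 genes of G-protein signalling 4 fell and 1 rose. GRPR, the receptor of gastrin-releasing peptide, was at 9.05, 4.68, 7.46 and 5.79 in LPS and at 52.2, 49.7, 16.9 and 17.6 in CTR, and GPR37, an orphan receptor, was at 0.699 to 2.40 in LPS and 8.07 to 12.1 in CTR. Of 27 channels and transporters 7 rose and 1, KCNMB4, a potassium channel subunit, fell (3.08 to 5.01 in LPS and 15.1 to 24.7 in CTR). BCHE, butyrylcholinesterase, had 410 reads over the LPS libraries and 1 read over CTR, a ratio of 406 with a 95% exact interval from 72.5 to 16091.5. DPYSL4, a member of the collapsin response mediator family, was at 1.15 to 3.92 in LPS and 17.3 to 24.4 in CTR. GRPR, GPR37, KCNMB4 and DPYSL4 reached the level in CTR alone and BCHE in LPS alone. The differences of these genes were in part fixed by how they were taken.

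**Figure D3:**
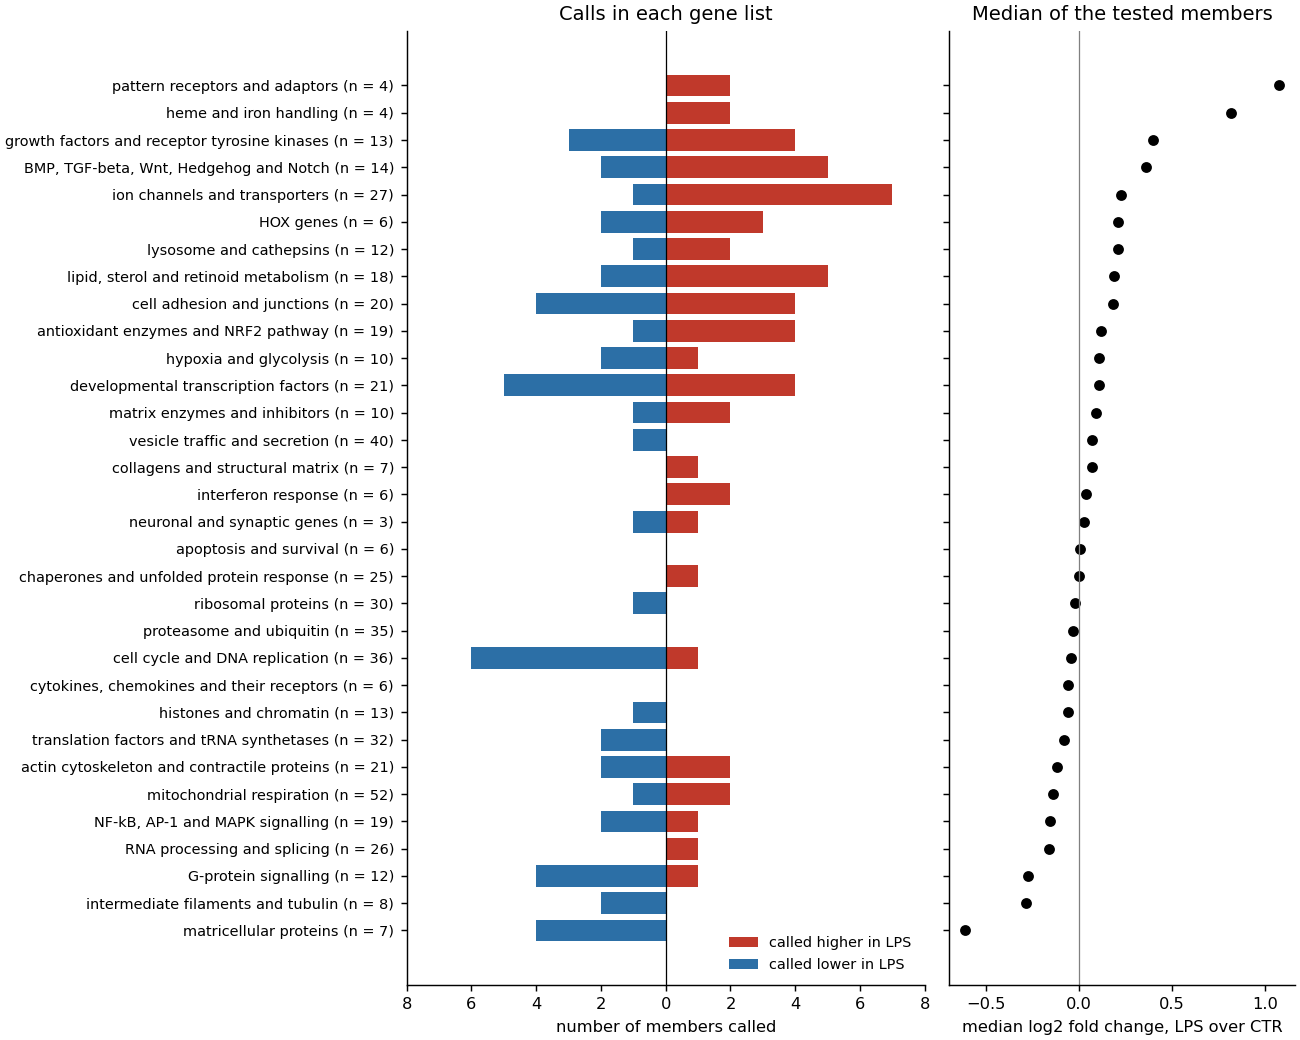
Number of members called higher (red) and lower (blue) in LPS in each gene list (left) and the median log2 fold change of the members tested (right), with the number tested in parentheses. Lists are ordered by their median, from pattern receptors (1.07) to matricellular proteins (-0.61), and most medians lie near 0. Over all tested transcripts 16.7% were called.

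Transcripts without a symbol made up 465 of the 632 calls. Among the well-expressed ones XM_040684370.2 had the largest rise, at 658, 666, 620 and 607 in LPS and at 23.8, 24.4, 40.8 and 36.7 in CTR (20.3-fold), and the noncoding XR_005849533.2 had the largest fall, at 3.54, 1.72, 1.52 and 1.28 in LPS and at 109, 104, 134 and 156 in CTR (62.4-fold). Both kept their direction in each pair of replicates, which are parts of the libraries that gave the calls. XR_005849533.2 reached the level in CTR alone, so that a fall was in part fixed by how it was taken.

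The calls were read against a second exposure to LPS, in cells that had PB1, which uses none of the 8 libraries above. Of the 632 called transcripts 605 were tested in LPS+PB1 against PB1, where 29.4% of all tested transcripts were called. The direction was the same in 367 of the 605, and 237 were called in the same direction and 131 in the opposite one. The change differed between the 2 exposures in 418 of the 605 by the interaction test (adjusted p of at most 0.05), where 44.9% of all 4650 transcripts tested passed. The called transcripts were chosen by a difference that is itself part of the interaction term, so nothing is read from the higher share among them. The interaction test also treated the libraries of each group as independent and was not run on means of pairs. Its p-values may likewise be too small where the libraries of a pair are not independent. Among called genes with a symbol, 57 of 86 that rose and 40 of 74 that fell kept their direction. The share with equal direction over all tested transcripts was not computed, so nothing is read from these counts of direction.

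C3 had log2 fold changes of 5.25 without PB1 and 4.68 with it, and the difference did not pass the interaction test (adjusted p = 0.46). DEPTOR rose in both, by 4.75 and 5.27. APOD rose without PB1 (5.27) and had a log2 difference of 0.62 with PB1 that was not called (interaction adjusted p = 5.1e-05). The RNA sensors turned round. TLR3 was 1.38 higher without PB1 and 0.88 lower with it on the log2 scale, at means of 11.9 ± 1.64 in PB1 and 6.42 ± 0.210 in LPS+PB1 (interaction adjusted p = 8.1e-07). IFIH1 was 1.08 higher without PB1 and 1.57 lower with it (interaction adjusted p = 1.4e-07). SELENOP1 likewise rose by 2.60 without PB1 and fell by 2.15 with it. Of the matricellular proteins CCN2 fell without PB1 (-0.77) and rose with it (4.03), from 466 ± 52.1 in PB1 to 7625 ± 466 in LPS+PB1. CTSC fell in both, by 1.31 and by 4.41. JUN also fell in both, by 0.64 and by 1.03.

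**Figure D4:**
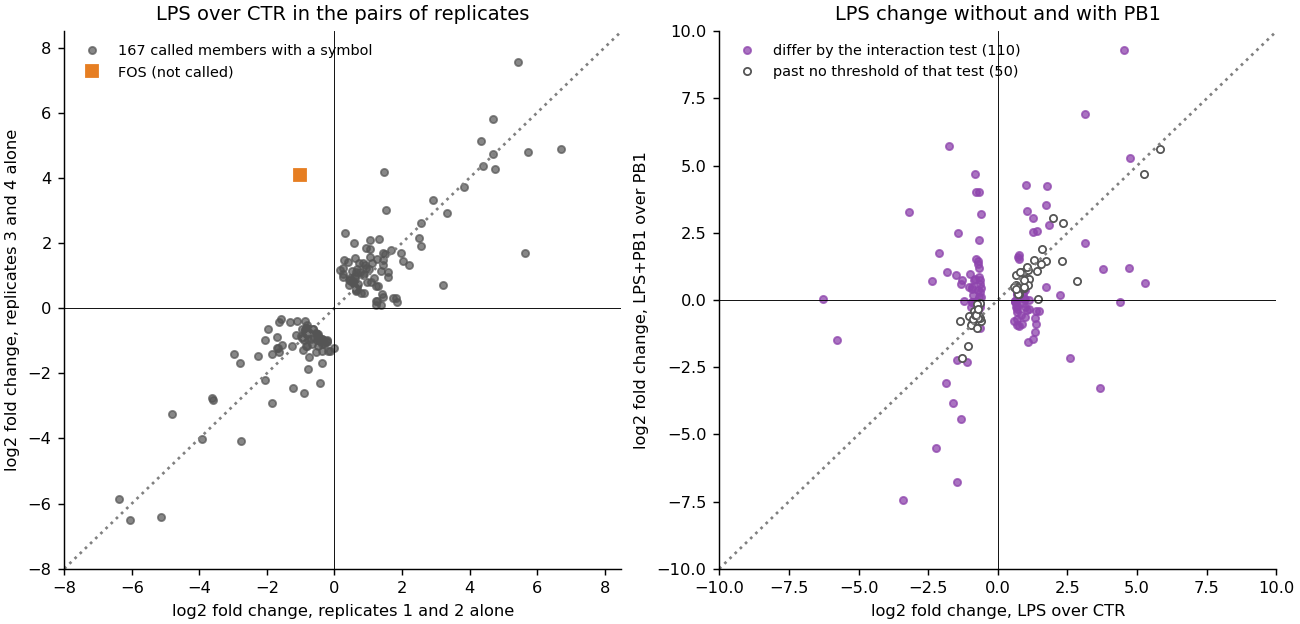
Left, log2 fold change of LPS over CTR in replicates 1 and 2 alone (x axis) and in replicates 3 and 4 alone (y axis) for the 167 called members with a symbol, with FOS (square, not called). Right, log2 fold change of LPS over CTR (x axis) and of LPS+PB1 over PB1 (y axis) for the 160 of them tested in both, filled where the interaction test passed (110). On the left, where the pairs are parts of the libraries that gave the calls, all called members lie in the 2 quadrants of equal sign. On the right 97 of 160 do.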

How the data were processed

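RNA libraries (Illumina TruSeq) were aligned to GRCg7b with HISAT2 and counted with HTSeq by the authors, per the labels, which give no versions. The authors deposited 1 table of normalized signal per RefSeq transcript. All its values lie on whole steps of 1 library-specific size after 1 read is added, rounded down, so that reads could be read back for filtering and depth, but the values are not counts and no count test was used, although count tests had been intended as a comparison. Each library was scaled to its total and TMM factors, and log2 values were tested with limma 3.58.1 (R 4.3.3, trend) over transcripts with at least 10 reads by the filter (total at least 15), with Benjamini-Hochberg adjustment over all tested transcripts. Intervals cover counting error only. The script was tested on simulated data, drawn as independent libraries without pairs of replicates. That test therefore gives no error rate for the paired libraries here. Symbols came from RefSeq accessions (GRCg7b), and predicted accessions matched none. Only 1 symbol had a second transcript in the table. Values of a named gene are thus those of a curated transcript, and its other transcripts may be among those without a symbol.

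Named genes were taken from the 8 largest rises and 8 falls among called symbols with non-overlapping groups and a mean of at least 100 in the higher group, up to 3 called genes in each direction of each list, the members of the receptor, cytokine and interferon lists, and JUN, FOS, TLR3, IL6, HIF1A and NFE2L2, listed by name. Some results, 1 of the 8 largest falls among them, are not reported here. EGR1, HBA1 and WISP1 were chosen after their values were seen. The members and lists were chosen with earlier results of these data known. Lists were filled by name patterns, which also took in genes of other function, and the counts and medians of a list include them. Examples are HBEGF (heme list), ITGB3BP (adhesion list), RPS19BP1 and CEBPZ. Others are CDC42 and CDC37 (cell cycle list), WDR3, WDR18, NOP56 and NPM1 (translation list) and TRIM8, TRIM28 and TRIM39.2 (interferon list). Other settings tried were another scaling, no filter, another pseudocount, the replicate number as a block, fewer libraries and other limits.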

Additional observations from a re-analysis of the deposited data

Results flagged for a closer look

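In 6 of 146 groups of 4 libraries that were examined, 1 library stood apart from the other 3 by Dixon's test, and chance gives about 1 in 20 groups. These were PRDX6 in CTR replicate 3 (621), ATP6V0C in CTR replicate 4 (352), SELENOP1 in CTR replicate 3 (16.1), ACTN1 in CTR replicate 4 (2408), GPR37 in CTR replicate 3 (8.07) and HBA1 in LPS replicate 3 (75.2). HBA1, an alpha globin chosen here after its values were seen, had 341 reads in that library and was at 0.205 to 0.918 in the other LPS libraries and 0.194 to 1.71 in CTR. It reached the level through this library alone and was not tested between LPS and CTR.

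The change under LPS differed between cells with and without PB1, by the interaction term of limma at an adjusted p of at most 0.05, in many of the genes described above. Values are the log2 fold change with PB1 minus that without it. It was above 0 in XR_005849533.2 (11.78), DPYSL4 (6.45), EIF1AX (6.34), GPR37 (5.51), SOX6 (5.14), SOX11 (4.87), CCN2 (4.805), HOXC10 (4.78), ZIC1 (4.28), KCNMB4 (3.86), WISP1 (3.82), HOXB8 (3.77), TGFBI (2.90), XM_040684370.2 (2.86), EPAS1 (2.29), EHD3 (1.91), TIMP3 (1.82), BHLHE40 (1.81), ACTN1 (1.63), CYR61 (1.5), PRDX6 (1.43), CRIP1 (1.34), EPHB2 (1.17), DUSP4 (1.16), CDK6 (1.06), SOX4 (0.98), ENO1 (0.96), HOXA11 (0.87), BDNF (0.85), COL3A1 (0.79), EIF6 (0.71), DEPTOR (0.53), TMEM173 (0.52), RPS2 (0.49) and LMNB2 (0.41). It was below 0 in ADH1C (-6.94), CLEC3B (-5.70), BCHE (-4.78), SELENOP1 (-4.74), APOD (-4.64), SLC40A1 (-3.52), CTSC (-3.09), IFIH1 (-2.65), SFRP1 (-2.62), TLR3 (-2.25), NES (-2.20), TNFRSF11B (-1.57), ZFP36L2 (-1.21), C12orf75 (-1.16), ID4 (-1.01), TRIM25 (-0.91), CSTB (-0.69), ID2 (-0.57), ATP6V0C (-0.48) and JUN (-0.38). Where a group held only a few reads, as HOXC10 in PB1 (mean 0.258) or BCHE in CTR, the size of these values depends on the 1 read that was added to every transcript.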

How the results depend on the processing

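The 632 calls (366 higher, 266 lower) became 960 in replicates 3 and 4 alone (456 of them lower), 349 when each pair of replicates was averaged (219 higher, 130 lower), 1304 with no limit on the fold change (659 higher, 645 lower) and 318 with a limit of 2-fold (190 higher, 128 lower). Leaving out each library in turn gave 583 to 703 calls, 336 to 393 higher and 244 to 310 lower. With the replicate number as a block there were 607 calls, and the deviations of same-numbered libraries correlated at -0.21 to -0.06, so that the numbers were not taken to pair samples. RLE size factors gave 630, no filter on low values 601, a further pseudocount 616, all 16 libraries in 1 fit 636, and membership in both groups 461. FOS was at a log2 fold change of -1.03 in replicates 1 and 2, against 1.53 over all libraries, and EGR1 at 2.96 in replicates 3 and 4, against -0.20. The calls of COL3A1 and WISP1 were also lost under the block (adjusted p = 0.095 and 0.12) and without the filter (both 0.073), that of HMOX1 without the filter (0.056), those of WISP1 and MT3 with all 16 libraries in 1 fit (0.13 and 0.065), and that of CLEC3B was gained under the block (0.030). The cause was not tested. The planned count tests were not run, because the deposited values are not counts. With 4 libraries per group in 2 pairs, small changes and genes of few reads were not detectable with confidence at this depth.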
